A study of Mus musculus with 6 samples.

Results

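The enzymes, transporters and regulators that carry glucose to pyruvate and lactate were followed through 35 named genes, chosen by symbol from the 37583 gene identifiers of the deposited tables. The genes cover hexose uptake, upper and lower glycolysis, lactate formation and transport, the PFKFB enzymes that tune phosphofructokinase, the pyruvate dehydrogenase complex with its kinases, and 1 enzyme of the reverse route, Fbp1. All 35 symbols were found, pyruvate kinase under its older symbol Pkm2.

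EGFP-positive intercalated cells, the acid- and base-secreting cells of the collecting duct, were taken 2 h after renal ischemia-reperfusion injury (IRI), in which renal blood flow is interrupted for a time and let back in, or 2 h after sham surgery. Both groups came from 12-week-old B1 VATPase EGFP transgenic mice, in which the B1 gene of the vacuolar proton pump drives EGFP, and both passed through 2 rounds of cell sorting from the medulla. There were 3 IRI and 3 sham samples, and each pooled 4 kidneys from 2 mice, so no value belongs to a single animal. The entries for tissue and genotype name the epididymis and the CX3CR1 gene, which differs from the kidney and the B1 pump gene named in the design text. Of 11 intercalated cell markers, all were tested, 7 were not called and 4 fell (a call is an adjusted p under 0.05 in edgeR's quasi-likelihood test). The share over all tested genes that fell was 21.2%. Levels are given as RPKM, reads scaled by gene length and by a library size that the authors adjusted. The most abundant of these 11 markers, Car2, the cytosolic carbonic anhydrase, averaged 5289 ± 639 RPKM in IRI samples and 5363 ± 558 RPKM in sham samples (mean ± SD, n = 3 each). Foxi1, the transcription factor that specifies these cells, averaged 639 ± 166 RPKM in IRI samples and 511 ± 54.3 RPKM in sham samples, and was not called. Those that fell were Atp6v1b1, the B1 pump gene itself, with 644 ± 82.1 RPKM in IRI samples and 857 ± 65.6 RPKM in sham samples (log2 -0.37 ± 0.13, adjusted p = 0.0427), Kit (log2 -0.80 ± 0.16, adjusted p = 0.00414), Insrr (log2 -1.62 ± 0.34, adjusted p = 0.00835) and Hmx2, with 30.6 ± 7.84 RPKM in IRI samples and 243 ± 108 RPKM in sham samples (log2 -2.95 ± 0.37, adjusted p = 0.00104).

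Glycolysis splits glucose into pyruvate in the cytosol and makes a little ATP without oxygen. Lactate dehydrogenase turns pyruvate into lactate and regenerates the NAD that glycolysis needs, while the pyruvate dehydrogenase complex sends pyruvate into the mitochondrial tricarboxylic acid cycle unless its kinases, the PDKs, switch it off. Most steps are served by several isoenzymes encoded by separate genes, and several of these genes are textbook targets of hypoxia-inducible factors. In the kidney, the medulla is the region with the least oxygen, and cells of the collecting duct are known to use glycolysis more than those of the proximal tubule. Intercalated cells run ATP-driven proton pumps and are rich in mitochondria.

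Since several members are known targets of hypoxia-inducible factors, promoters were read for the hypoxia response element core, ACGTG or GCGTG, on both strands. The window ran from 250 bases before to 50 bases after each annotated start, from RefSeq on GRCm38.p6, a later build than the mm9 used for the counts. Of the members, 34 matched this table, with 53 promoters in all. Genes that rose after IRI are printed first (the glucose transporter Slc2a1, the hexokinase Hk2 and the lactate dehydrogenase Ldha), then 1 that rose without a match (the enolase Eno2) and 1 that fell without a match (the phosphoglycerate mutase Pgam2). Of the 5 members that fell, the 4 with a core are not printed. Another promoter of Ldha, with 2 cores, is not printed either. Capitals mark either core or its reverse complement.
Slc2a1, chr4:119108495-119108794, plus strand: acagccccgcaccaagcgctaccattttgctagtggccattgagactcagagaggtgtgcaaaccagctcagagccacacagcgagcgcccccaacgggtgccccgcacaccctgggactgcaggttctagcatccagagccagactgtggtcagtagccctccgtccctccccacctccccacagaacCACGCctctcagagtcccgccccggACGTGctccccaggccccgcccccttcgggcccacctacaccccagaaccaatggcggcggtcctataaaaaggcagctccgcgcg
Hk2, chr6:82774405-82774704, minus strand: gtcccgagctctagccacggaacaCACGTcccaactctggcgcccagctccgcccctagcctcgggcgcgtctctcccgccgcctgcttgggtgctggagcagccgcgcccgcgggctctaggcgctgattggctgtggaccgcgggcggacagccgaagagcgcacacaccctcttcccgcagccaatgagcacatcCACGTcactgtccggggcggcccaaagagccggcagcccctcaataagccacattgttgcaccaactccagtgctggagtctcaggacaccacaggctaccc
Ldha, chr7:46845554-46845853, plus strand: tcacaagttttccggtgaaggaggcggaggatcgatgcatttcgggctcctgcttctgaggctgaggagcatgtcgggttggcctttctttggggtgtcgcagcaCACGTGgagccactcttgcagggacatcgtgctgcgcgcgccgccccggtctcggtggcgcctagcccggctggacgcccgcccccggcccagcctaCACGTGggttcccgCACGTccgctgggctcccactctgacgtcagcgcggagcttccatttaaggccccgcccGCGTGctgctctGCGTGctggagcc
Eno2, chr6:124769624-124769923, minus strand: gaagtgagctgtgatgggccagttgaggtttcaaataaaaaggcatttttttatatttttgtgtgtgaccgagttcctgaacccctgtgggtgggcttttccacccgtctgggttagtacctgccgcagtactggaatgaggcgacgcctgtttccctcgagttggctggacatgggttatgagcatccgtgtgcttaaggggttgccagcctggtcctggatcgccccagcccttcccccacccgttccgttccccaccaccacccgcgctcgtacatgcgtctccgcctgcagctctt
Pgam2, chr11:5803747-5804046, minus strand: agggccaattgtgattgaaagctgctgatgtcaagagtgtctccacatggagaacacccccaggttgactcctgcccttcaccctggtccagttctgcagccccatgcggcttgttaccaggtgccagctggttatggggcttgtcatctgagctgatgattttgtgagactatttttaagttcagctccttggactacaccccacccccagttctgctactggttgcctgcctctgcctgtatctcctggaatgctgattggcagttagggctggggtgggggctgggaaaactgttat

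At least 1 core stood in 13 of the 14 promoters of members that rose and in 6 of the 10 of members that fell. Among members without a call, it stood in 18 of 25 promoters. Several genes have more than 1 promoter, and some of these windows overlap. By gene, a core stood in 10 of the 11 members that rose, 4 of the 5 that fell and 13 of the 17 without a call. Among all 32851 promoters of the table, 43.8% held one, and base composition was not matched. Cores stood in promoters of every class of members, those that rose, fell and were not called. The E-box CACGTG, which contains ACGTG on each strand and so overlaps it, stood in 3 promoters of members that rose, 2 of members that fell and 1 of members without a call, against 7.15% of all promoters. The AP-1 motif, TGACTCA or TGAGTCA, stood in 0 promoters of members that rose or fell and in 1 of the members without a call, against 5.2% of all promoters. A match is a description of letters and shows no binding.

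The libraries held 17421669 to 24245330 reads counted in genes. Of the 35 members, 33 passed the low-count filter, and Slc2a3 and Pfkfb1 did not. After IRI, 11 members rose, 5 fell and 17 were not called (edgeR quasi-likelihood test, Benjamini-Hochberg adjusted p under 0.05 over 13881 genes). Of all tested genes, 24.2% rose and 21.2% fell, 45.5% together, so the 48.5% of tested members that were called is a share near the background. The counts by role and by list below stand against the same shares. Scaling by library size alone gave 9 higher and 7 lower members, and upper-quartile scaling gave 10 higher and 7 lower. The members' median log2 fold change was 0.12, against 0.00038 over all tested genes. In CPM scaled by TMM, IRI and sham values did not overlap for 14 members that were higher and 6 that were lower, where 29.2% of all tested genes lay higher and 27.2% lower without overlap, 56.4% together. In these bulk samples, fewer cells of a type and less RNA per cell cannot be told apart.

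Large changes were mostly increases. A call with at least a 2-fold rise was made for 7 members, where 11.5% of all tested genes had one, and a call with at least a 2-fold fall for 1 member, where 8.5% of all tested genes had one. The 7 were Slc2a1, Hk2, Eno2, Slc16a1, Pfkfb3, Pfkfb4 and Pdk4, and the 1 was Pdk2. Hk2 passed the low-count filter through its IRI samples alone, so it could enter this count only as a rise. Hk2, Eno2, Slc16a1 and Pfkfb4 were low genes, with means of 1.00, 2.445, 1.02 and 3.08 RPKM in the IRI samples.

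**Figure D1:**
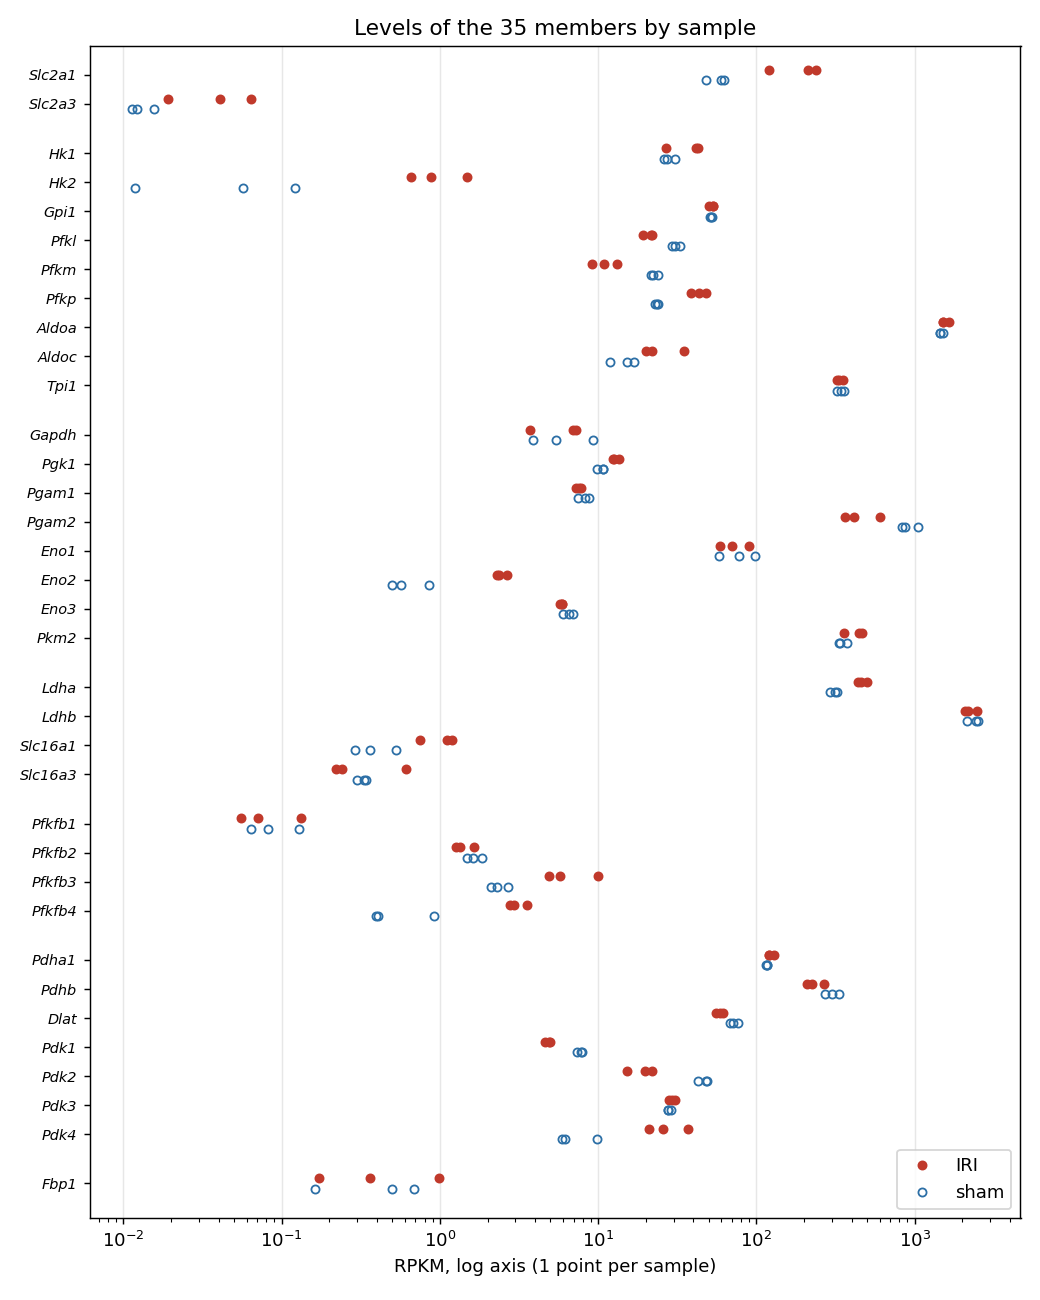
Level of each member as deposited RPKM on a log axis, 1 point per sample, with IRI samples beside sham samples and members grouped by role. Ldhb, Aldoa and Pgam2 lie at the top of the scale in both groups, while Hk2, Slc16a3 and Fbp1 lie near its low end.

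**Figure D2:**
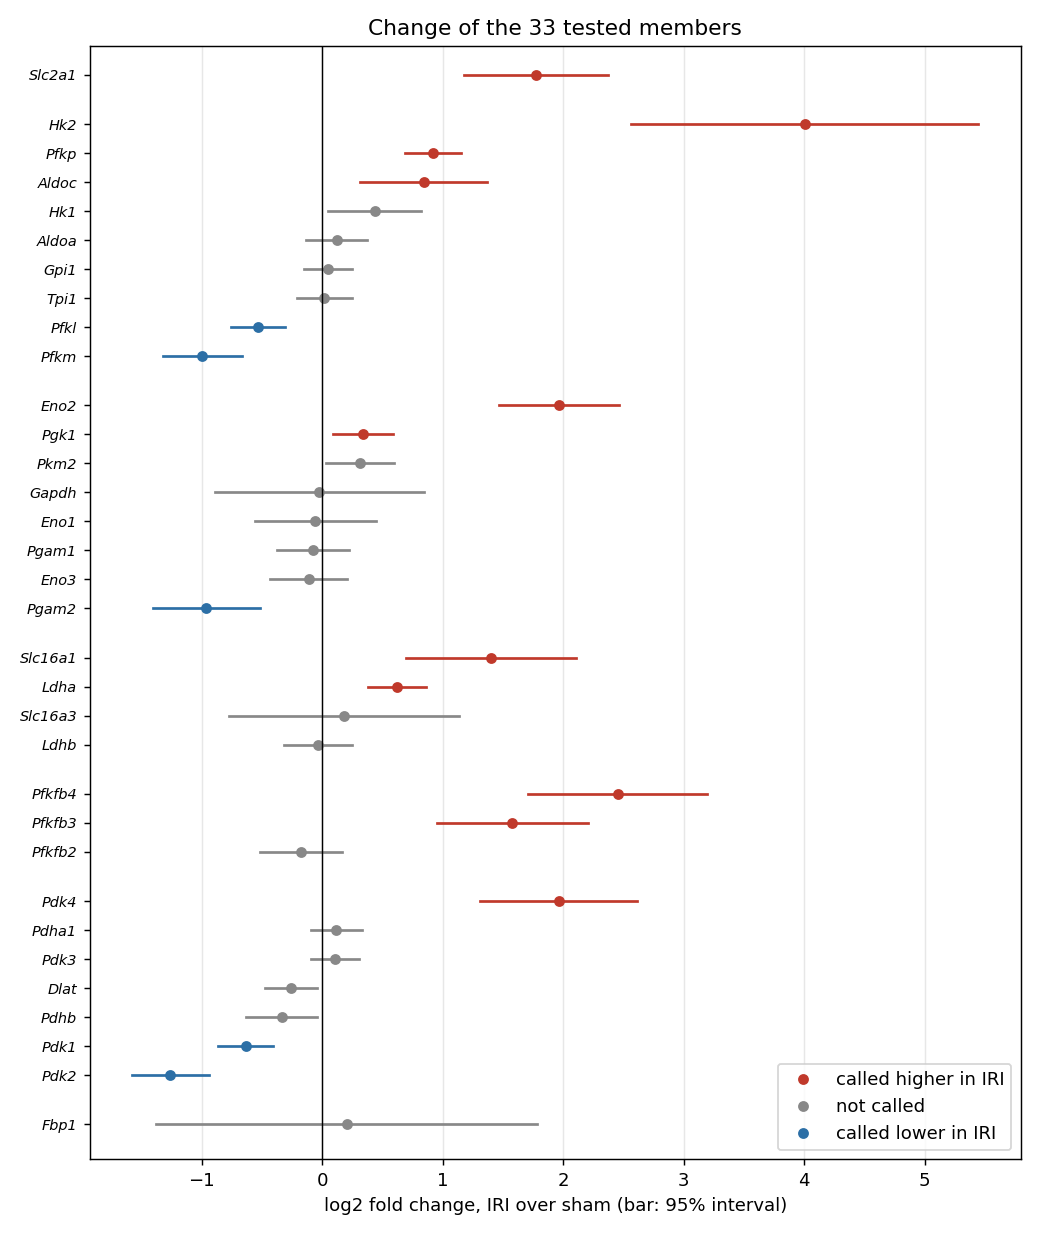
Log2 fold change of IRI over sham for each tested member, with 95% intervals from edgeR's quasi-likelihood fit and colours for the call. Hk2 has the highest value, 4.00, and Pdk2 the lowest, -1.26.

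Among the members, glucose entry was represented by Slc2a1 and Slc2a3. Slc2a1 encodes GLUT1, a facilitative glucose carrier of many epithelia and of red cells. Slc2a1 had 119.9, 237 and 211 RPKM in the IRI samples, against 48.4, 59.5 and 62.6 RPKM in the sham samples. The lowest IRI sample was well above the highest sham sample, and the rise was 3.42-fold (log2 1.77 ± 0.25, adjusted p = 0.00118). Slc2a3, which encodes the neuronal carrier GLUT3, had 10, 3 and 6 reads in the IRI samples, against 2, 2 and 2 reads in the sham samples. It stayed under the filter, and its ratio of summed reads was 3.30 with an exact 95% interval of 1.27 to 10.1, which covers counting error only. In both groups GLUT1 transcripts therefore made up nearly all of this pair, but not of all carrier genes measured. Slc2a4, a carrier gene of the same family from a list below, averaged 26.1 ± 2.80 RPKM in IRI samples and 47.7 ± 6.67 RPKM in sham samples. It fell after IRI (log2 -0.83 ± 0.13, adjusted p = 0.0011). Of the other carriers in that list, Slc2a8, Slc2a9 and Slc2a12 fell too, and Slc2a6 rose.

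In upper glycolysis, 3 of 9 tested members rose (Hk2, Pfkp and Aldoc), 2 fell (Pfkl and Pfkm) and 4 were not called (Hk1, Gpi1, Aldoa and Tpi1). The first step, phosphorylation of glucose, is served by hexokinases. Hk2, the isoenzyme known from muscle and from many tumours, had 220, 130 and 93 reads in the IRI samples, against 2, 19 and 7 reads in the sham samples. It was scarce throughout, at 1.47, 0.875 and 0.659 RPKM in the IRI samples, against 0.0119, 0.122 and 0.0574 RPKM in the sham samples, and no IRI value overlapped a sham value. Without its IRI samples Hk2 would not have passed the low-count filter. The summed reads were 16.5 times those of sham, with an exact 95% interval of 11.3 to 25.1 for counting error, and the fitted change was log2 4.00 ± 0.62, adjusted p = 0.00151. The fit without sham replicate 2, which held most of the sham reads, gave log2 4.96, adjusted p = 0.00105.

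Hk1, the widely expressed hexokinase, stood far above Hk2 in RPKM. It had 41.3, 42.6 and 26.96 RPKM in the IRI samples, against 26.2, 27.1 and 30.5 RPKM in the sham samples. Replicate 3 of the IRI group lay within the sham range and the other two IRI samples above it, and Hk1 was not called (log2 0.44 ± 0.17, adjusted p = 0.0626, 95% interval 0.05 to 0.82). Without that IRI replicate it was called higher (log2 0.62, adjusted p = 0.00403). Of the RPKM of the pair, Hk2 made up 2.61 ± 0.745% in IRI samples and 0.227 ± 0.203% in sham samples (SD, n = 3 each).

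The 3 phosphofructokinase genes, which encode the committed step of glycolysis, moved in different directions. Pfkp, named for the platelet form, had 48.03, 38.7 and 43.4 RPKM in the IRI samples, against 23.8, 22.9 and 23.7 RPKM in the sham samples. It rose 1.90-fold (log2 0.92 ± 0.10, adjusted p = 0.000183), and each IRI sample exceeded each sham sample. Pfkm, the muscle form, had 9.14, 10.8 and 13.2 RPKM in the IRI samples, against 22.1, 21.6 and 24.04 RPKM in the sham samples. Pfkl, the liver form, had 19.2, 21.7 and 21.8 RPKM in the IRI samples, against 32.7, 29.5 and 30.7 RPKM in the sham samples. Both fell, Pfkm to a 1.99-fold lower level (log2 -0.99 ± 0.14, adjusted p = 0.000681) and Pfkl to a 1.45-fold lower level (log2 -0.53 ± 0.10, adjusted p = 0.0024), again with no overlap in RPKM.

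The summed RPKM of the 3 genes was 75.3 ± 3.68 RPKM in IRI samples and 77.00 ± 2.63 RPKM in sham samples. Its composition differed: Pfkp made up 62.9, 54.4 and 55.4% in the IRI samples, against 30.3, 30.96 and 30.2% in the sham samples. Pfkm made up 14.7 ± 2.46% in IRI samples and 29.3 ± 1.30% in sham samples, and Pfkl 27.8 ± 2.65% in IRI samples and 40.2 ± 1.27% in sham samples (SD, n = 3 each). Pfkp was thus the most abundant of the 3 in each IRI sample, whereas Pfkl was in each sham sample. Each of these shares separated the groups, and the exact 2-sided permutation test gave p = 0.1, the smallest that 3 against 3 samples allow (adjusted p = 0.144 over 26 shares).

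Among aldolases, which split the 6-carbon sugar, Aldoa was the main form. Aldoa, the muscle and general form, had 1506, 1655 and 1521 RPKM in the IRI samples, against 1442, 1520.1 and 1453 RPKM in the sham samples, and was not called (log2 0.12 ± 0.11, adjusted p = 0.406, 95% interval -0.13 to 0.38). Aldoc, the brain form, had 35.1, 21.9 and 19.97 RPKM in the IRI samples, against 16.7, 11.9 and 15.3 RPKM in the sham samples. It rose 1.79-fold (log2 0.84 ± 0.23, adjusted p = 0.0179) with IRI replicate 1 highest, and the call was lost under 4 of 16 alternative settings, the fits without sham replicate 2 and without sham replicate 3 among them, with adjusted p up to 0.0697. Gpi1, the isomerase after hexokinase, averaged 52.1 ± 1.56 RPKM in IRI samples and 51.6 ± 0.498 RPKM in sham samples, and its log2 fold change was 0.05 ± 0.09. Tpi1, which interconverts the triose phosphates, averaged 337 ± 13.4 RPKM in IRI samples and 341 ± 16.7 RPKM in sham samples, and its log2 fold change was 0.02 ± 0.10. Neither was called, and their 95% intervals ran over -0.15 to 0.25 for Gpi1 and -0.21 to 0.25 for Tpi1 on the log2 scale.

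In lower glycolysis, 2 of 8 tested members rose (Pgk1 and Eno2), 1 fell (Pgam2) and 5 were not called (Gapdh, Pgam1, Eno1, Eno3 and Pkm2). Several of these genes share sequence with processed pseudogenes, which bears on how far their levels can be read. Of the 50-base windows of their transcripts, 58.4% in Gapdh, 68.0% in Pgk1, 49.5% in Eno1 and 41.5% in Pgam1 also occur in transcripts of other annotated genes. Smaller parts, 10.4% to 30.3%, were shared in Pdhb, Pfkfb2, Gpi1, Pkm2, Ldhb, Pdha1, Pfkp and Ldha, members from several roles. For Pfkp and Pfkfb2 no sharing gene was a pseudogene, and Pdha1 shared most with Map3k15. Reads without a unique alignment, 39.9% to 42.4% of the recorded reads, were not counted. Reads ambiguous between genes, 1.58% to 1.73%, were not counted either. The levels of the 4 genes named first are therefore uncertain, and levels and shares of the others named may be affected too. The part of this in their values was not tested.

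Gapdh, which oxidises glyceraldehyde 3-phosphate, had 3.71, 7.20 and 6.93 RPKM in the IRI samples, against 3.89, 9.32 and 5.43 RPKM in the sham samples. Its samples spread widely within each group and were not called apart (log2 -0.02 ± 0.37, adjusted p = 0.966, 95% interval -0.89 to 0.84). Pgk1, the first ATP-making step, averaged 12.9 ± 0.578 RPKM in IRI samples and 10.4 ± 0.557 RPKM in sham samples (SD, n = 3 each). It rose 1.27-fold (log2 0.34 ± 0.11, adjusted p = 0.0326), and the call was lost under 10 of 16 alternative settings, with adjusted p up to 0.364. Leaving out single libraries gave adjusted p of 0.0363 to 0.125.

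Phosphoglycerate mutase was represented almost wholly by Pgam2, the muscle form, in these kidney cells. Pgam2 had 365, 414 and 600.0 RPKM in the IRI samples, against 872, 837 and 1044 RPKM in the sham samples. It fell to a 1.94-fold lower level (log2 -0.96 ± 0.19, adjusted p = 0.00426), and each IRI sample was below each sham sample. Pgam1, the general form, had 7.82, 7.61 and 7.26 RPKM in the IRI samples, against 7.51, 8.25 and 8.82 RPKM in the sham samples, and was not called (log2 -0.08 ± 0.13, adjusted p = 0.661). Of the RPKM of the pair, Pgam2 took 98.3 ± 0.461% in IRI samples and 99.1 ± 0.0758% in sham samples, although the counts of Pgam1 leave out reads that also match its copies. None of the 50-base windows of Pgam2 occurs in another annotated transcript. Skeletal muscle markers stood at 0 in all libraries for 5 of 8 genes (Myh1, Myh2, Myh4, Tnnt3 and Myl1), and their summed level was 0.0983 to 1.46 RPKM in IRI samples and 0.039 to 0.152 RPKM in sham samples.

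Among enolases, which make phosphoenolpyruvate, Eno2 changed. Eno2, the form known from neurons, had 2.37, 2.29 and 2.67 RPKM in the IRI samples, against 0.848, 0.497 and 0.57 RPKM in the sham samples. It rose 3.91-fold (log2 1.97 ± 0.22, adjusted p = 0.000182) and did not overlap between groups. Eno1, the general form, had 70.1, 89.7 and 59.1 RPKM in the IRI samples, against 58.02, 98.6 and 77.1 RPKM in the sham samples. Eno3, the muscle form, had 5.88, 5.78 and 5.92 RPKM in the IRI samples, against 5.96, 6.99 and 6.53 RPKM in the sham samples. Neither was called (log2 -0.06 ± 0.22, adjusted p = 0.849 for Eno1 and log2 -0.11 ± 0.14, adjusted p = 0.554 for Eno3). Eno1 values overlapped widely, and Eno3 values lay close together without overlapping in RPKM. Eno2 was a minor form in both groups, and of the enolase RPKM it made up 3.11 ± 0.801% in IRI samples and 0.818 ± 0.437% in sham samples.

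Pkm2, here the gene of both muscle-type pyruvate kinase isoforms, which counts per gene cannot separate, had 445, 463 and 359.8 RPKM in the IRI samples, against 334, 337 and 373 RPKM in the sham samples. As with Hk1, IRI replicate 3 lay within the sham range while the other IRI samples lay above it. Pkm2 was not called (log2 0.32 ± 0.12, adjusted p = 0.065, 95% interval 0.03 to 0.60), but was called higher without IRI replicate 3 (log2 0.42, adjusted p = 0.0255) and by DESeq2 (log2 0.31, adjusted p = 0.0406).

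Lactate formation and export comprised 4 tested members, of which Ldha and Slc16a1 rose and Ldhb and Slc16a3 were not called. Ldha, whose subunit favours lactate formation, had 501, 460.3 and 437 RPKM in the IRI samples, against 325, 312 and 293 RPKM in the sham samples. It rose 1.54-fold (log2 0.62 ± 0.11, adjusted p = 0.00155), and no value overlapped. Ldhb, whose subunit favours the return to pyruvate, had 2187, 2478 and 2094.5 RPKM in the IRI samples, against 2148, 2523 and 2429 RPKM in the sham samples. Ranked by mean RPKM over all samples, Ldhb was gene 17 of the whole table and Ldha gene 188. Ldhb was not called (log2 -0.03 ± 0.13, adjusted p = 0.847), with a 95% interval of -0.32 to 0.25.

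Ldhb was the main form in both groups. Of the RPKM of the pair, Ldha made up 18.6, 15.7 and 17.3% in the IRI samples, against 13.2, 11.02 and 10.8% in the sham samples, and each IRI share was above each sham share (exact permutation p = 0.1, adjusted p = 0.144). The summed RPKM of both was 2719 ± 205 RPKM in IRI samples and 2677 ± 185 RPKM in sham samples. Slc16a1, which encodes the lactate and pyruvate carrier MCT1, had 1.10, 0.753 and 1.20 RPKM in the IRI samples, against 0.531, 0.291 and 0.359 RPKM in the sham samples. It was a low gene in each library and rose 2.64-fold (log2 1.40 ± 0.31, adjusted p = 0.00606). Slc16a3, which encodes MCT4, the carrier of strongly glycolytic cells, had 0.219, 0.61 and 0.241 RPKM in the IRI samples, against 0.33, 0.299 and 0.341 RPKM in the sham samples. Its IRI samples lay on both sides of the sham range, and it was not called (log2 0.18 ± 0.42, adjusted p = 0.749, 95% interval -0.77 to 1.14). Slc16a7, a gene of the same carrier family from a list below, stood far above both. It had 40.2, 52.5 and 66.5 RPKM in the IRI samples, against 69.8, 60.6 and 69.4 RPKM in the sham samples. Slc16a7 was not called (log2 -0.29 ± 0.18, adjusted p = 0.213, 95% interval -0.69 to 0.11).

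**Figure D3:**
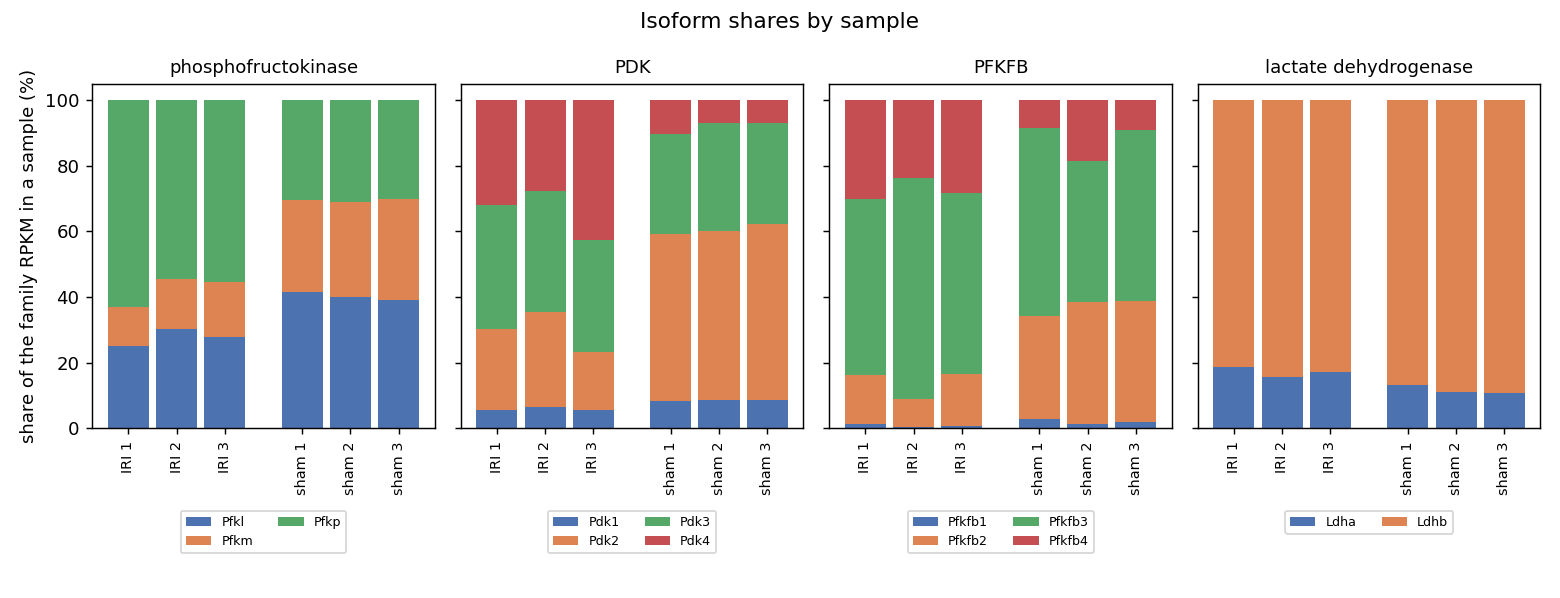
Share of each isoform in the summed RPKM of its family, in percent, as 1 stacked bar per sample, with IRI samples left of sham samples. The families are phosphofructokinase, PDK, PFKFB and lactate dehydrogenase. Pfkp takes 57.6% of phosphofructokinase RPKM after IRI against 30.5% in sham. Of PDK RPKM, Pdk4 takes 34.1% after IRI against 8.10% in sham, and Pdk3 36.4% against 31.4%.

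The PFKFB enzymes make and break fructose 2,6-bisphosphate, the strongest activator of phosphofructokinase. Pfkfb3, whose kinase activity far outweighs its phosphatase activity, had 4.91, 9.97 and 5.72 RPKM in the IRI samples, against 2.68, 2.11 and 2.28 RPKM in the sham samples. Pfkfb4, known from testis and hypoxic cells, had 2.77, 3.53 and 2.93 RPKM in the IRI samples, against 0.396, 0.921 and 0.406 RPKM in the sham samples. Both rose, Pfkfb3 2.99-fold (log2 1.58 ± 0.27, adjusted p = 0.00256) and Pfkfb4 5.47-fold (log2 2.45 ± 0.33, adjusted p = 0.000509), without overlap. Pfkfb2, the heart form, had 1.35, 1.27 and 1.65 RPKM in the IRI samples, against 1.47, 1.84 and 1.62 RPKM in the sham samples, and was not called (log2 -0.18 ± 0.15, adjusted p = 0.375, 95% interval -0.52 to 0.17). Pfkfb1, the liver form, was under the filter, with 23 reads over the IRI samples and 25 over the sham samples.

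Together the 4 genes stood at 11.5 ± 2.98 RPKM in IRI samples and 4.67 ± 0.274 RPKM in sham samples. Within that sum, Pfkfb4 made up 27.5 ± 3.33% in IRI samples and 12.1 ± 5.68% in sham samples, and Pfkfb2 13.04 ± 3.93% in IRI samples and 35.3 ± 3.26% in sham samples (SD, n = 3 each). Pfkfb3 had the highest mean share in both groups, 58.7 ± 7.50% in IRI samples and 50.7 ± 7.39% in sham samples, and its shares overlapped. Pfkfb2 took the second place in sham samples and Pfkfb4 in IRI samples.

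At the entry to the mitochondrion, the catalytic core of pyruvate dehydrogenase showed no call. Pdha1, its E1 alpha subunit, averaged 123 ± 5.73 RPKM in IRI samples and 116.5 ± 1.01 RPKM in sham samples, and its log2 fold change was 0.12 ± 0.09 (adjusted p = 0.32). Pdhb, the E1 beta subunit, had 208, 268 and 225 RPKM in the IRI samples, against 271, 302 and 333 RPKM in the sham samples. Dlat, the E2 subunit, had 61.2, 58.5 and 55.5 RPKM in the IRI samples, against 76.1, 68.2 and 70.9 RPKM in the sham samples. Both missed the threshold (log2 -0.33 ± 0.13, adjusted p = 0.0637 for Pdhb and log2 -0.26 ± 0.10, adjusted p = 0.0508 for Dlat), and they were called lower in 8 and 9 of the 16 alternative settings.

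The kinases that inhibit the complex moved in different directions, with 1 of 4 higher, 2 lower and Pdk3 not called. Pdk4, a kinase known to respond to fasting and glucocorticoids, had 25.7, 21.1 and 36.9 RPKM in the IRI samples, against 9.90, 5.89 and 6.15 RPKM in the sham samples. Pdk2, a broadly expressed kinase, had 19.7, 22.02 and 15.1 RPKM in the IRI samples, against 48.7, 42.8 and 47.95 RPKM in the sham samples. Pdk4 rose 3.90-fold (log2 1.96 ± 0.28, adjusted p = 0.00124) and Pdk2 fell to a 2.39-fold lower level (log2 -1.26 ± 0.14, adjusted p = 0.000179). Pdk4 values were highest in IRI replicate 3, the sample in which Pdk2 was lowest.

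Pdk1, a known hypoxia-inducible factor target, was lower after IRI. It had 4.59, 4.94 and 4.88 RPKM in the IRI samples, against 7.87, 7.32 and 7.76 RPKM in the sham samples, a 1.55-fold lower level (log2 -0.64 ± 0.10, adjusted p = 0.00107). Pdk3 had 30.6, 28.2 and 29.5 RPKM in the IRI samples, against 28.9, 27.4 and 27.8 RPKM in the sham samples, and was not called (log2 0.11 ± 0.09, adjusted p = 0.349, 95% interval -0.09 to 0.30). The summed RPKM of the 4 kinases was 81.1 ± 5.08 RPKM in IRI samples and 89.5 ± 5.99 RPKM in sham samples. Of that sum, Pdk2 made up 24.5, 28.9 and 17.5% in the IRI samples, against 51.1, 51.3 and 53.5% in the sham samples. Pdk4 made up 31.8, 27.6 and 42.7% in the IRI samples, against 10.4, 7.05 and 6.86% in the sham samples. The 2 sets of shares did not overlap between groups (exact permutation p = 0.1 each, adjusted p = 0.144), and Pdk2 led in each sham sample. Pdk3 made up 38.0, 37.0 and 34.1% in the IRI samples, against 30.3, 32.9 and 31.0% in the sham samples. It led in IRI replicates 1 and 2, and Pdk4 led in IRI replicate 3.

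Fbp1, the gluconeogenic enzyme that reverses the phosphofructokinase step, had 0.983, 0.172 and 0.362 RPKM in the IRI samples, against 0.683, 0.164 and 0.497 RPKM in the sham samples. It is known from the proximal tubule, was low and overlapping here, and was not called (log2 0.20 ± 0.69, adjusted p = 0.83). Proximal tubule markers summed to 14.4 to 16.8 RPKM in IRI samples and 9.13 to 20.2 RPKM in sham samples.

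Further genes of the same and adjoining pathways were counted from lists. These counts stand against the 24.2% of all tested genes that rose and the 21.2% that fell. Of 14 tested genes of hexose entry and minor isoenzymes, 2 rose (Bpgm and Slc2a6) and 4 fell (Slc2a4, Slc2a8, Slc2a9 and Slc2a12), with a median log2 fold change of -0.04. Slc2a9, a urate carrier of the same family, averaged 0.826 ± 0.195 RPKM in IRI samples and 2.31 ± 0.0626 RPKM in sham samples (SD, n = 3 each, log2 -1.45 ± 0.19, adjusted p = 0.000393). Slc2a6 had 88, 137 and 80 reads in the IRI samples, against 34, 3 and 7 reads in the sham samples, so it passed the low-count filter through its IRI samples alone, and under library size the list held 1 gene that rose. Of 17 further pyruvate and lactate genes, 4 rose (Ldhd, Me1, Me2 and Pdp1) and 2 fell (Gpt2 and Pdp2), with a median of -0.25. Those that fell numbered 6 under upper-quartile factors, 8 under library size, 5 by DESeq2 and with the replicate block, and 4 by edgeR's exact test and by limma on log2 RPKM. They numbered 1 without IRI replicate 1 and 4 without IRI replicate 3 or sham replicate 1, and those that rose numbered 2 without sham replicate 2 or 3. Me1, the cytosolic malic enzyme that makes pyruvate, averaged 3.19 ± 0.435 RPKM in IRI samples and 0.982 ± 0.131 RPKM in sham samples (log2 1.73 ± 0.18, adjusted p = 0.000114). Ldhd, the D-lactate dehydrogenase, averaged 5.37 ± 2.72 RPKM in IRI samples and 2.21 ± 0.124 RPKM in sham samples (log2 1.31 ± 0.32, adjusted p = 0.0137).

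The phosphatases that switch pyruvate dehydrogenase back on differed in direction, as its kinases did. Pdp1 averaged 10.05 ± 1.06 RPKM in IRI samples and 4.68 ± 0.926 RPKM in sham samples (log2 1.14 ± 0.16, adjusted p = 0.000617). Pdp2 averaged 0.612 ± 0.261 RPKM in IRI samples and 2.11 ± 0.185 RPKM in sham samples (log2 -1.75 ± 0.32, adjusted p = 0.00216). Of 5 tested genes of gluconeogenesis, Fbp2 rose and Slc37a4, the glucose 6-phosphate carrier of the endoplasmic reticulum, fell (log2 -1.40 ± 0.14, adjusted p = 0.000108), with a median of -0.04. Fbp2 had 38, 15 and 12 reads in the IRI samples, against 2, 3 and 6 reads in the sham samples, so it passed the low-count filter through its IRI samples alone. No gene of this list rose under the stricter filter or without IRI replicate 1 or sham replicate 1. The genes that fell numbered 2 under upper-quartile factors, library size, limma on log2 RPKM and the replicate block, and without IRI replicate 2 or sham replicate 1.

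Of 11 tested pentose phosphate genes, 3 rose (G6pdx, H6pd and Prps1) and 3 fell (Rpe, Prps2 and Rbks), with a median of 0.09. H6pd, which oxidises glucose 6-phosphate inside the endoplasmic reticulum, averaged 15.6 ± 7.12 RPKM in IRI samples and 3.64 ± 0.261 RPKM in sham samples (log2 2.13 ± 0.32, adjusted p = 0.00204). Rbks, the ribokinase, averaged 3.98 ± 0.704 RPKM in IRI samples and 9.67 ± 2.70 RPKM in sham samples (log2 -1.24 ± 0.24, adjusted p = 0.00304). Of 20 tested glycogen genes, 2 rose (Pgm1 and Ugp2) and 5 fell (Phkb, Phkg1, Pgm2, Ppp1r3c and Epm2a), with a median of -0.30. Ppp1r3c passed the low-count filter through its sham samples alone. Pgm1, a phosphoglucomutase gene, averaged 41.2 ± 3.43 RPKM in IRI samples and 18.6 ± 1.12 RPKM in sham samples (log2 1.19 ± 0.10, adjusted p = 5.77e-05). Pgm2, the other such gene listed, averaged 9.87 ± 0.829 RPKM in IRI samples and 19.4 ± 1.64 RPKM in sham samples (log2 -0.93 ± 0.11, adjusted p = 0.000285). Both symbols are those of the deposited tables and may differ from current ones, so they do not tell which gene is the main glycogen enzyme. Glycogen genes that fell numbered 8 under upper-quartile factors and 10 under library size.

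Of 17 tested tricarboxylic acid cycle genes, Cs rose and 3 fell (Idh2, Sdhd and Fh1), with a median of -0.16. Cs, the citrate synthase, was called in 4 of the 17 fits, this one included, and in none of the fits that left out a library. Genes of the cycle that fell numbered 9 under upper-quartile factors, 14 under library size, 6 without sham replicate 1, and 5 by DESeq2, by limma on log2 RPKM and with the replicate block. Of 10 tested genes of the NADH shuttles, 2 rose (Gpd2 and Slc25a13) and 3 fell (Gpd1l, Slc25a11 and Slc25a12), with a median of -0.18. Gpd2, the mitochondrial glycerol 3-phosphate dehydrogenase, averaged 15.9 ± 2.77 RPKM in IRI samples and 4.31 ± 0.746 RPKM in sham samples (log2 1.91 ± 0.17, adjusted p = 5.68e-05). The shuttle genes that fell numbered 5 under upper-quartile factors and 7 under library size.

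Of 16 tested regulators of glycolytic genes, 6 rose (Epas1, Egln3, Myc, Mlxip, Arrdc4 and Prkaa1) and 3 fell (Egln1, Esrra and Ppargc1a), with a median of 0.12. Myc, a transcription factor that drives many glycolytic genes, averaged 5.88 ± 1.37 RPKM in IRI samples and 1.26 ± 0.187 RPKM in sham samples (log2 2.25 ± 0.21, adjusted p = 7.9e-05). Ppargc1a, a coactivator of mitochondrial genes, averaged 15.02 ± 1.46 RPKM in IRI samples and 36.3 ± 5.06 RPKM in sham samples (log2 -1.24 ± 0.13, adjusted p = 0.000111). Arrdc4, which restrains glucose uptake, averaged 29.8 ± 5.01 RPKM in IRI samples and 13.01 ± 1.32 RPKM in sham samples (log2 1.23 ± 0.14, adjusted p = 0.000232), and Prkaa1, a catalytic subunit of AMP-activated kinase, averaged 12.6 ± 0.171 RPKM in IRI samples and 6.29 ± 0.693 RPKM in sham samples (log2 1.04 ± 0.11, adjusted p = 0.000142). Hif1a, Arnt and Vhl were not called. Egln3, a prolyl hydroxylase of hypoxia-inducible factors and itself a known target of them, had 152, 81 and 194 reads in the IRI samples, against 10, 16 and 9 reads in the sham samples, and passed the low-count filter through its IRI samples alone. Its relative Egln1, likewise a known target, fell (log2 -0.66 ± 0.13, adjusted p = 0.00276).

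**Figure D4:**
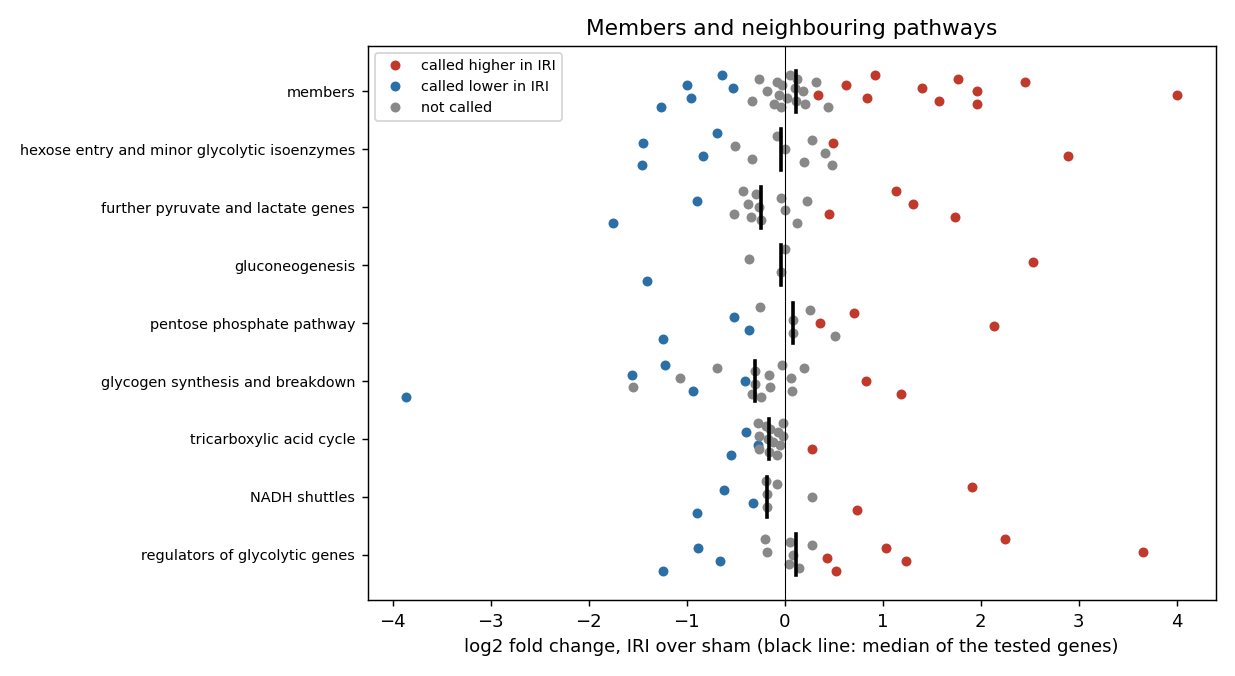
Log2 fold change of IRI over sham for each tested gene of the adjoining pathway lists and for the members, 1 point per gene, with the median of each list as a bar. Medians run over -0.30 for glycogen genes to 0.12 for the members and for the regulators.

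Markers of other cells were measured beside these values, and their counts stand against the same 24.2% and 21.2% of all tested genes that rose and fell. Principal cell markers summed to 4003 to 8084 RPKM in IRI samples and 8463 to 9302 RPKM in sham samples, and 2 of 7 tested fell. Aqp2, their most abundant, had 6414, 2922 and 4478 RPKM in the IRI samples, against 6974.5, 6680 and 6480 RPKM in the sham samples. It was not called (log2 -0.51 ± 0.25, adjusted p = 0.127). Its mean was 6711 RPKM in sham samples, above Car2 at 5363 RPKM. In IRI samples its mean was 4605 RPKM, below Car2 at 5289 RPKM. Macrophage and dendritic cell markers summed to 126 to 187 RPKM in IRI samples and 40.0 to 167 RPKM in sham samples, and 4 of 11 tested rose (Ptprc, Cd68, Cd14 and Lyz2). Most of that sum was Cd74, which was not called, nor were Csf1r, C1qa, C1qb and C1qc. Cd68 averaged 25.7 ± 9.53 RPKM in IRI samples and 0.631 ± 0.226 RPKM in sham samples (log2 5.39 ± 0.37, adjusted p = 3.88e-05). Neutrophil markers summed to 0.0348 to 9.78 RPKM in IRI samples and 0 to 0.199 RPKM in sham samples, with Camp at 0 in all libraries. Thick ascending limb markers summed to 273 to 475 RPKM in IRI samples and 411 to 671 RPKM in sham samples, and 1 of 5 tested fell. Intercalated cell markers summed to 10745 to 12768 RPKM in IRI samples and 10277 to 13568 RPKM in sham samples. The part of other cells in the values of the members was not tested.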

How the data were processed

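RNA of sorted cells was sequenced in 6 libraries, and titles gave the groups. Raw whole-number counts per gene were deposited without normalization, and the file names call the counting unstranded. STAR, HTSeq and edgeR are listed in the submitters' processing notes, with build mm9 and no versions. The deposited RPKM (reads scaled by gene length and an adjusted library size) were computed by the authors and serve for levels and shares. Calculated back from counts and RPKM, that library size was 0.92 to 0.98 times the reads in genes in IRI samples. In sham samples it was 1.04 to 1.09 times those reads. Since no label names separate experiments, p-values reflect only the spread between these pools.

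The test of counts was that of edgeR 4.0.16 (R 4.3.3; filterByExpr, TMM scaling, robust quasi-likelihood fit with the group as its only term, Benjamini-Hochberg adjustment, call at an adjusted p under 0.05). Fold changes are IRI over sham with standard errors. Entries that name no gene, 49.3% to 50.9% of recorded reads, entered neither library sizes nor tests. Within a group, libraries were more different than sampling noise allows, with a chi-square per degree of freedom of 16.9 to 46.3. Intervals on reads cover counting error only. Isoform shares were compared by exact 2-sided permutation over 20 arrangements. The edgeR test was checked on simulated counts that had the same dispersion for all genes.

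Members and lists were chosen with earlier results of these data known. Named genes are all members and, from each list, called genes with an absolute log2 fold change of at least 1 and a mean log2 CPM of at least 3, at most 4 per direction. The other list genes, Pdp2, Egln3, Egln1, Slc2a4 and Slc16a7 included, were named after their values were seen. So were Camp, Foxi1, Atp6v1b1, Kit, Insrr, Hmx2, Csf1r, C1qa, C1qb and C1qc. Alternatives were other scalings, filters and tools (DESeq2 1.42.0, limma 3.58.1 on counts and on log2 RPKM with a pseudocount of 0.5), a replicate block, and leaving out each library.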

Additional observations from a re-analysis of the deposited data

How the results depend on the processing

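Of 528 member values under 16 alternatives, 492 stayed on their side of the threshold, 14 lost a call, 22 gained one, and 0 called values changed direction. Of the 16 called members, 14 were called under every alternative run, all but Aldoc and Pgk1. Across these settings 9 to 13 members were called higher and 5 to 7 lower. Without 1 library at a time, 9 to 12 were called higher, 5 to 6 lower, and 4861 to 5835 genes were called in all, against 6312. On log2 RPKM with a pseudocount of 0.5, which understates the change of low genes, the log2 fold changes were 1.38 for Hk2, 1.38 for Eno2, 0.76 for Slc16a1 and 1.77 for Pfkfb4. Against the fit used, upper-quartile scaling moved the median log2 fold change of all genes by -0.12 and library size alone by -0.20, with members' medians of -0.0023 and -0.08.

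The replicate numbers carried no stated pairing. Deviations of same-numbered samples correlated at 0.182, 0.095 and 0.178, and each sample correlated best with its own number, a hint from the data and not from the design. The replicate block gave 6463 called genes, 10 members higher and 7 lower. Shares of isoforms kept their direction without 1 library at a time except in 3 small differences. The Slc2a1 share differed by -0.013 to 0.0093 percentage points, the Slc2a3 share by -0.0093 to 0.013, and the Eno3 share by -1.14 to 0.28, with 0.22 without sham replicate 1. With 3 against 3 samples no share can reach a p below 0.1. Depth limits Slc2a3, Pfkfb1 and Hk2, which had few reads.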
